A study of Mus musculus with 6 samples.

Results

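Kupffer cells are the macrophages that live in the sinusoids of the liver. The 10 genes described here mark them: Clec4f, Timd4, Vsig4, Cd5l, Marco, Folr2, Cd163, C1qa, C1qb and C1qc. They were taken by symbol from a table of 25102 genes, and all 10 were found. The table holds poly(A) RNA sequencing of 6 livers of male C57BL/6J mice that were 2 weeks old at the start. Of these, 3 were given diethylnitrosamine and then carbon tetrachloride (DEN+CCl4), a model of hepatocellular carcinoma, and 3 were controls, whose injections the labels do not describe. The treated mice received 1 mg/kg of the carcinogen DEN, a single dose into the peritoneum. The hepatotoxin CCl4 followed about 6 weeks later at 0.2 mL/kg, 2 times a week, for at most 14 weeks. Whether tumour tissue, the liver around it or a mix went into a treated library is not stated, and animals carry only a replicate number in the labels. The p-values therefore measure the spread between these samples.

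Resident Kupffer cells are seeded before birth and renew themselves locally. They take up dying cells, haemoglobin, microbes and complement-coated particles from the portal blood. When they are lost, circulating monocytes can replace them and take on most of their genes over time, and Timd4 is among those acquired late. C1q genes and Folr2 are also read in macrophages of other tissues, whereas Clec4f in the mouse is known as a gene of Kupffer cells.

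Values are FPKM, fragments of a gene per unit of transcript length and of the library's total, as the authors deposited them with 2 decimals. No counts accompany them, so the depth behind a value is unknown and no counting interval is given. DEN+CCl4 replicate 3 stood apart. Transcripts of the mitochondrial genome took 64.2% of its FPKM, against 26.6% to 43.0% in the other 5 libraries, and 83.9% of all tested genes lay below all 3 controls in it. Values are therefore also given after median-ratio scaling, in which a library's values are divided by a factor, the median over genes of their ratio to a 6-library geometric mean. Control replicate 1 stood apart for macrophage genes. It had the highest value of all 6 libraries for 10 of the 10 markers, and the highest of the controls for 10 of the 10 genes of a list of pan-macrophage genes, against 30.0% of all tested genes. Counts of markers below all controls, as deposited and relative to other macrophage genes, are given with and without these libraries.

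All 10 markers were above 0 in every library. As deposited, all 3 DEN+CCl4 values lay below all 3 control values for 3 of the 10, Timd4, Marco and Cd163, as they did for 4.06% of the 24933 genes above 0 in any library. In the 6 comparisons that left out a library, 3 or 4 of the 10 markers and 4.34% to 13.2% of all genes were below. These were 3 of the 10 and 4.34% without DEN+CCl4 replicate 3, and 3 of the 10 and 7.51% without control replicate 1. Timd4, Marco and Cd163 were among them each time by construction, since leaving out a library cannot undo such a separation. After median-ratio scaling 2 of the 10 lay below, Timd4 and Cd163, against 5.83% of all genes. Limma, a linear model with a variance shared across genes, called 0 of the 8 markers that had a mean of at least 1 FPKM (adjusted p under 0.05), and 0 of the 8 had an unadjusted p under 0.05. Among all 8528 genes tested, 1.48% were called. Fewer Kupffer cells and less of a transcript per cell cannot be told apart in whole liver.

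**Figure D1:**
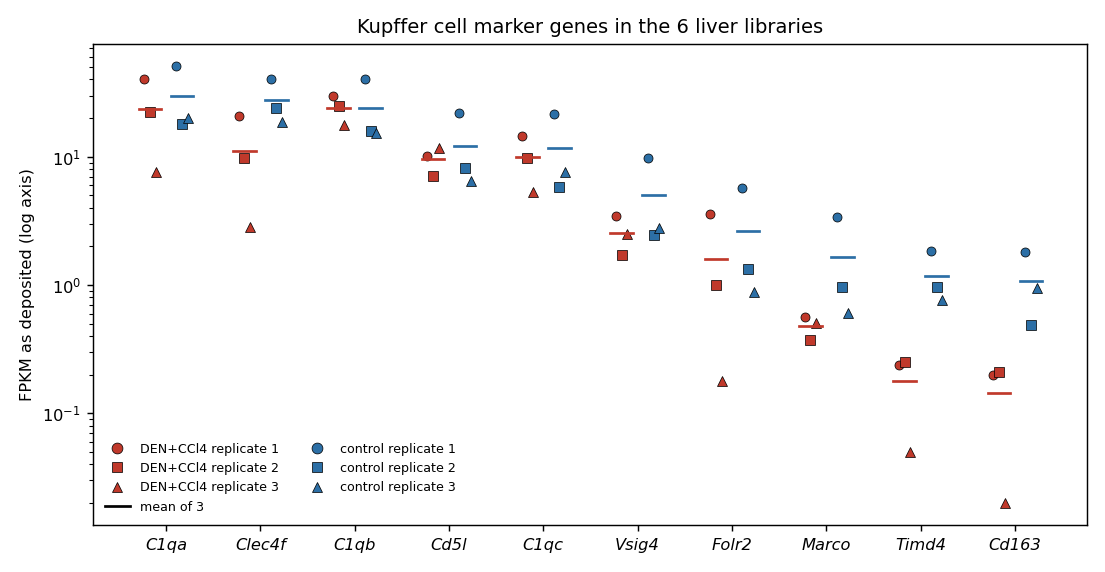
FPKM (log axis) of each marker gene in the 3 DEN+CCl4 libraries (red, left of each pair) and the 3 control libraries (blue, right), with symbols for replicates 1 to 3 and bars for means. The red points of Marco, Timd4 and Cd163 sit below all blue points, and control replicate 1 (blue circle) is the highest point of every gene.

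The stretches just upstream of 4 markers are shown because the results turn on them: Timd4 and Cd163 were low in every DEN+CCl4 library, and C1qb and C1qc are neighbours whose levels did not separate by group. Sequences are from RefSeq on GRCm38.p6, 5' to 3' on the strand of the gene, within the 250 bases before its RefSeq start and cut where either RefSeq or GENCODE places a transcript. Capitals mark a match, on either strand, to AGGAAGT or to TGGGAA. The first is a form of the site bound by the macrophage factor PU.1 and other ETS factors. The second is the core bound by RBPJ of the Notch pathway.
Timd4 (chr11:46810549-46810785, plus strand): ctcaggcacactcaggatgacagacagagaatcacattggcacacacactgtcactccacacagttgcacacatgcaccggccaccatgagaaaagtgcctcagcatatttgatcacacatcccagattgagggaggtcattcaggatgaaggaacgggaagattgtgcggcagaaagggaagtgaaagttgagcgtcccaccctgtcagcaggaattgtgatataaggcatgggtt
Cd163 (chr6:124304401-124304635, plus strand): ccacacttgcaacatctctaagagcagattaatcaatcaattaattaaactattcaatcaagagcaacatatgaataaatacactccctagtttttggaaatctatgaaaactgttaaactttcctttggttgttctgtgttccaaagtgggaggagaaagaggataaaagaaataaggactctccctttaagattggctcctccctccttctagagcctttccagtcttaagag
C1qb (chr4:136886201-136886450, minus strand): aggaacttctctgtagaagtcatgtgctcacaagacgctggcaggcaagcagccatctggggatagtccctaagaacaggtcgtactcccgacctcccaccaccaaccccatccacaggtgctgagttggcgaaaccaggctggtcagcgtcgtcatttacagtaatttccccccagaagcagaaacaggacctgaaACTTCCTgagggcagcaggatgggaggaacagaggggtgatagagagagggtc
C1qc (chr4:136893066-136893164, minus strand): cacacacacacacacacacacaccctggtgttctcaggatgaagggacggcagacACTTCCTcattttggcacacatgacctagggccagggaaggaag
The Timd4 and Cd163 stretches held neither word, but other forms of these sites were not searched for. C1qb and C1qc each held AGGAAGT on the opposite strand, beginning 53 and 195 bases before the start. Over the full 250 bases, 9 of the 10 markers had a window (C1qa is named only), 10 windows in all. AGGAAGT was in 3 of these windows, those of C1qb, C1qc and Folr2, and in 7.69% of 32851 windows of all genes. TGGGAA was in 2, those of Clec4f and Marco, against 21.6%. A match is only these letters in this window, and binding was not measured.

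Timd4 encodes Tim-4, a receptor for phosphatidylserine on dying cells (chromosome 11, 46810800 to 46844332, GRCm38 as annotated by GENCODE). The 3 DEN+CCl4 livers, in replicate order, had 0.24, 0.25 and 0.05 FPKM, against 1.83, 0.96 and 0.76 FPKM in the 3 control livers. Every treated liver was therefore lower than every control, and the groups did not overlap. The means were 0.180 ± 0.113 FPKM in DEN+CCl4 liver and 1.18 ± 0.569 FPKM in controls (SD, n = 3 each), so the treated mean was 0.152 of the control mean. Timd4 averaged under 1 FPKM and was not among the genes tested. In a limma fit with no filter on low values its log2 fold change of FPKM + 1 was -0.86 ± 0.26 (SE), with an unadjusted p of 0.0120 and an adjusted p of 0.875 in limma. In that fit 2.28% of all genes were lower at an unadjusted p under 0.05, and 0.0% were lower after adjustment. After median-ratio scaling the gap was as wide, with 0.193, 0.171 and 0.119 in DEN+CCl4 liver and 1.67, 0.841 and 0.654 in controls.

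Cd163, the scavenger receptor for haptoglobin-bound haemoglobin (chromosome 6, 124304656 to 124330527), gave the same picture. DEN+CCl4 livers had 0.20, 0.21 and 0.02 FPKM of it, against 1.81, 0.49 and 0.95 FPKM in control livers. The highest treated liver was below the lowest control. The treated mean of 0.143 ± 0.107 FPKM was 0.132 of the control mean of 1.08 ± 0.670 FPKM (SD, n = 3 each). With no filter the log2 fold change was -0.82 ± 0.28 (SE; limma unadjusted p = 0.0192, adjusted p = 0.875). At 0.02 FPKM, in DEN+CCl4 replicate 3, the 2 decimals of the table leave 1 digit. Scaled values were 0.161, 0.144 and 0.0478 in DEN+CCl4 liver and 1.65, 0.429 and 0.818 in controls, again without overlap.

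Marco, a class A scavenger receptor for bacteria and particles (chromosome 1, 120474538 to 120505024), was the last of the 3 genes whose deposited values did not overlap. Treated livers had 0.56, 0.37 and 0.51 FPKM, against 3.39, 0.97 and 0.61 FPKM in control livers. The treated livers were close to each other, while the controls spanned 5.56-fold and the lowest of them was just above the highest treated liver. The log2 fold change was -0.70 ± 0.38 (SE; limma adjusted p = 0.725, unadjusted p = 0.0679). Without control replicate 1 it was -0.27. After median-ratio scaling DEN+CCl4 replicate 3 stood at 1.22, within the controls, which were at 3.09, 0.850 and 0.525.

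Clec4f, a C-type lectin that binds galactose-bearing glycans and in controls one of the 3 markers with the highest mean FPKM (chromosome 6, 83644542 to 83656187), was lower in 2 of the 3 treated livers. Its level was 20.8, 9.78 and 2.83 FPKM in the DEN+CCl4 livers, against 40.5, 24.0 and 18.6 FPKM in control livers. Replicates 2 and 3 lay below all controls, and replicate 1 lay between control replicates 2 and 3. The means were 11.1 ± 9.08 and 27.7 ± 11.4 FPKM in DEN+CCl4 and control liver (SD, n = 3 each), and the log2 fold change was -1.50 ± 0.81 (SE; limma adjusted p = 0.716, unadjusted p = 0.0641). Without DEN+CCl4 replicate 3 it was -0.83 (limma adjusted p = 0.645). After median-ratio scaling, which brings DEN+CCl4 replicate 3 level with replicate 2 at 6.76 and 6.70, it was -1.25 ± 0.48 (SE), with an unadjusted p of 0.0318 and an adjusted p of 0.431 in limma. On that scale 6.74% of all tested genes were lower at an unadjusted p under 0.05 and 0.0% after adjustment.

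Vsig4, or CRIg, the receptor by which Kupffer cells clear particles coated with complement C3 fragments (chromosome X, 96247203 to 96293438), overlapped between the groups. It was at 3.45, 1.71 and 2.48 FPKM in DEN+CCl4 liver and at 9.76, 2.46 and 2.80 FPKM in controls. Only control replicate 1 stood clear of the treated livers, and without it the log2 fold change was -0.06, against -0.58 ± 0.56 (SE; limma adjusted p = 0.996) with all libraries. Folr2, a folate receptor of tissue macrophages (chromosome 7, 101839988 to 101857194), was at 3.58, 1.00 and 0.18 FPKM in DEN+CCl4 liver and at 5.70, 1.33 and 0.89 FPKM in controls. The groups overlapped, and the log2 fold change of -0.48 ± 0.46 (SE; limma adjusted p = 0.996) was -0.03 without DEN+CCl4 replicate 3 and 0.075 without control replicate 1.

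Cd5l, a secreted protein of macrophages also known as AIM, an inhibitor of apoptosis (chromosome 3, 87357881 to 87371073), did not separate the groups. It was at 10.2, 7.13 and 11.7 FPKM in DEN+CCl4 liver and at 22.0, 8.13 and 6.43 FPKM in controls. It was the 1 marker whose highest treated value came from DEN+CCl4 replicate 3, the library in which most other genes were low. After median-ratio scaling that library held 27.9, more than any control (20.1, 7.12 and 5.53), while the other treated livers held 8.21 and 4.89. The log2 fold change was -0.14 ± 0.73 (SE; limma adjusted p = 0.996) as deposited and 0.16 ± 0.67 (SE; limma adjusted p = 0.944) after scaling.

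C1qa, C1qb and C1qc encode the 3 chains of C1q, the recognition part of the classical complement pathway, which macrophages secrete. The genes lie side by side on chromosome 4, C1qb at 136880129 to 136886187, C1qc at 136889804 to 136893065 and C1qa at 136895917 to 136898803, all on the minus strand. C1qa was at 40.2, 22.3 and 7.67 FPKM in DEN+CCl4 liver and at 51.1, 18.1 and 20.0 FPKM in controls. C1qb was at 29.9, 24.8 and 17.6 FPKM in DEN+CCl4 liver and at 40.5, 16.0 and 15.4 FPKM in controls. C1qc was at 14.6, 9.80 and 5.28 FPKM in DEN+CCl4 liver and at 21.5, 5.82 and 7.63 FPKM in controls. All 3 overlapped between the groups, and for C1qb 2 of the 3 controls were below all treated livers. Their log2 fold changes were -0.44 ± 0.87, 0.12 ± 0.86 and -0.11 ± 0.73 for C1qa, C1qb and C1qc (SE; limma adjusted p = 0.996 for each). The standard errors leave room for a change of more than 1 log2 unit either way.

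The proportions of the 3 C1q genes departed most in DEN+CCl4 replicate 3, the library in which mitochondrial transcripts took 64.2% of FPKM. The ratio of C1qb to C1qa was 0.744, 1.11 and 2.29 in the treated livers, against 0.792, 0.883 and 0.772 in control livers. The controls were close together, and DEN+CCl4 replicate 3 stood far from them and from replicate 1. C1qc over C1qa was likewise highest in DEN+CCl4 replicate 3, with 0.364, 0.440 and 0.688 in DEN+CCl4 liver and 0.421, 0.321 and 0.381 in controls. The groups overlapped for both ratios (exact two-sided permutation test, p = 0.4 for each). These ratios, 10 in all, were chosen after the values were seen.

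Some ratios between markers did not overlap between groups. The levels of Clec4f, C1qa and C1qb themselves overlapped, whereas those of Timd4 and Cd163 already lay below all controls. Clec4f over C1qa was 0.518, 0.440 and 0.369 in DEN+CCl4 liver and 0.793, 1.32 and 0.931 in controls. Clec4f and C1qa were thus about level in controls, and C1qa exceeded Clec4f in each treated liver. Timd4 over Clec4f was 0.0115, 0.0256 and 0.0177 in DEN+CCl4 liver and close to constant in controls, at 0.0452, 0.0401 and 0.0408. Cd163 over C1qa was 0.00498, 0.00944 and 0.00261 in DEN+CCl4 liver and 0.0354, 0.0270 and 0.0475 in controls. Clec4f over C1qb was 0.697, 0.395 and 0.161 in DEN+CCl4 liver and 1.00, 1.497 and 1.21 in controls. Each of these 4 ratios lay below all controls in every treated liver (exact two-sided permutation test, p = 0.1, the smallest that 3 against 3 libraries can give, and 0.25 adjusted over the 10 ratios). How often ratios of other gene pairs do so was not measured.

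**Figure D2:**
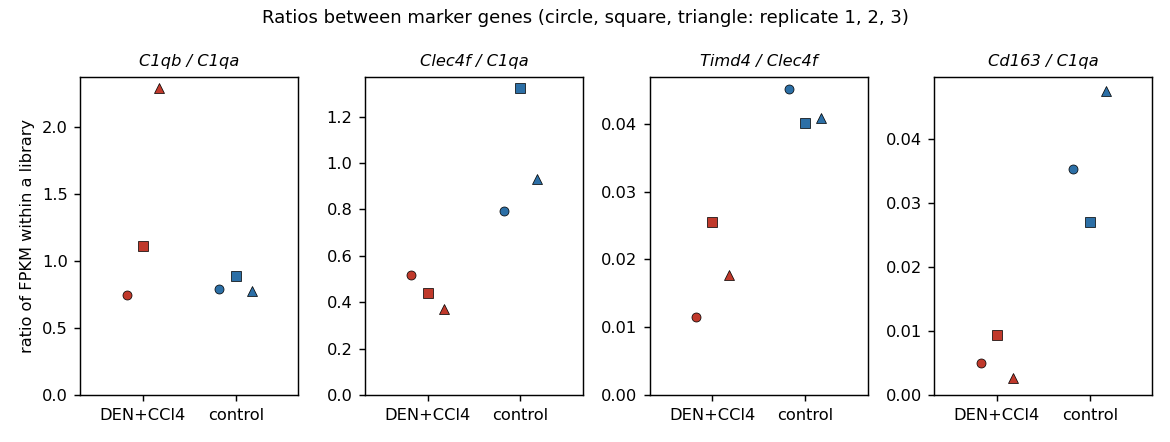
Ratios of FPKM within a library, from 0, for DEN+CCl4 (red, left) and control livers (blue, right), 1 point per library. Clec4f over C1qa, Timd4 over Clec4f and Cd163 over C1qa do not overlap between groups, while C1qb over C1qa reaches 2.29 only in DEN+CCl4 replicate 3.

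The markers' shares and order are given next. The C1q genes made up 68.4%, 73.5% and 63.2% of the summed FPKM of the 10 markers in treated livers, against 57.1%, 51.1% and 58.1% in control livers. Clec4f made up 16.8%, 12.7% and 5.86% in DEN+CCl4 liver, against 20.4%, 30.6% and 25.1% in controls. The groups did not overlap in either share. Both are parts of the same sum, so they are not independent observations, and no such share was taken for other genes. Clec4f ranked 3, 4 and 5 of the 10 in DEN+CCl4 replicates 1, 2 and 3, and 2, 1 and 2 in control replicates 1, 2 and 3. Timd4, Marco and Cd163 were among the lowest 4 in every library. C1qa and C1qb, both among the highest 3 markers in every library, did not differ beyond their spread, at 23.4 ± 16.3 and 24.1 ± 6.19 FPKM in DEN+CCl4 liver and 29.7 ± 18.5 and 24.0 ± 14.3 FPKM in controls (SD, n = 3 each).

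The markers were also set against other macrophage transcripts of the same library. Each was expressed relative to the mean of 10 pan-macrophage genes (Csf1r, Adgre1, Cd68, Mpeg1, Aif1, Fcgr1, Laptm5, Tyrobp, Fcer1g and Ctss) on the log2(FPKM + 0.1) scale. This removes the scale of the library, apart from the effect of the added 0.1. On this scale 5 of the 10 markers lay below all controls in every treated liver, Cd163, Timd4, Clec4f, Marco and Vsig4, against 6.55% of all genes. Timd4 was at -3.63, -3.48 and -4.66 in DEN+CCl4 liver and at -1.48, -1.32 and -1.31 in controls, a difference of -2.56. Cd163 was at -3.81, -3.65 and -4.98 in DEN+CCl4 liver and at -1.49, -2.16 and -1.02 in controls, a difference of -2.59. For genes this low the size of the difference depends on the pseudocount. With 1 in place of 0.1 it was -1.14 for Timd4 and -1.10 for Cd163, and with 0.01 it was -3.19 and -3.47. Clec4f was at 2.31, 1.34 and -0.38 in DEN+CCl4 liver and at 2.92, 3.19 and 3.13 in controls, a difference of -1.99. The 3 controls lay within 0.27 of each other for Clec4f and within 0.17 for Timd4 on this scale, although control replicate 1 had the highest FPKM of both. Marco differed by -1.62 and Vsig4 by -1.06. For each of these 5 genes the exact two-sided permutation p was 0.1, the smallest possible, and 0.2 adjusted over the 10 markers.

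The other 5 markers overlapped. C1qb differed by -0.22, C1qc by -0.46, Cd5l by -0.49, C1qa by -0.82 and Folr2 by -1.30 (exact two-sided permutation p from 0.2 to 0.4). Without DEN+CCl4 replicate 3 the difference was -1.25 for Clec4f, -0.20 for C1qa and -0.38 for Folr2, and 6 of the 10 markers lay below all controls, against 7.40% of all genes. Leaving out a library cannot lower the 5 seen with all libraries. Without control replicate 1, 5 markers lay below, but so did 54.7% of all genes. The summed FPKM of the pan-macrophage genes was 69.3, 62.6 and 69.6 in DEN+CCl4 liver and 75.9, 38.0 and 30.9 in controls. Relative to 11 sinusoidal endothelial genes in place of the macrophage genes, 4 of the 10 lay below, against 15.4% of all genes.

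**Figure D3:**
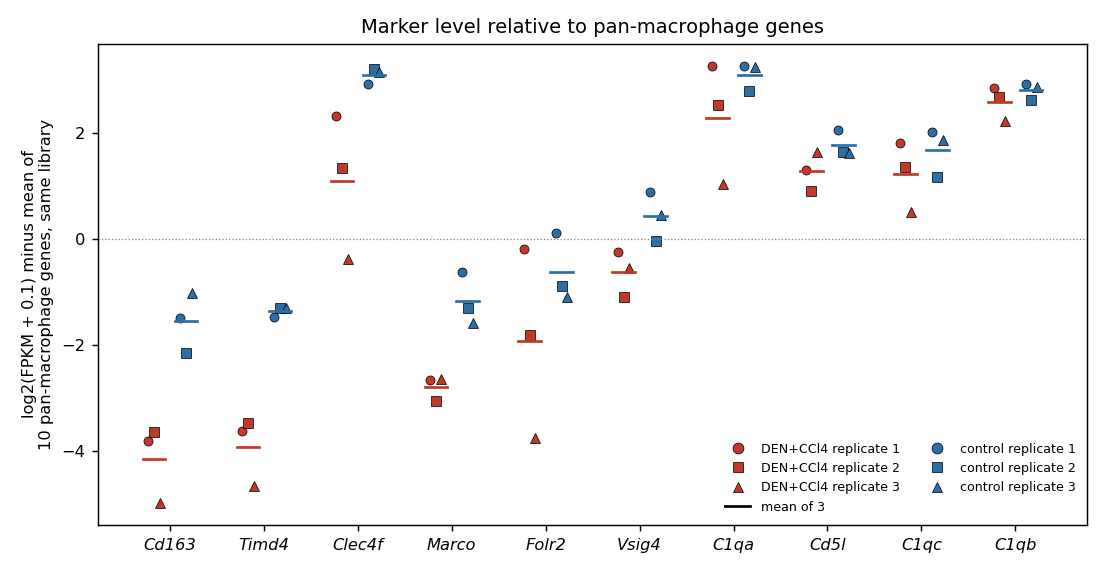
Level of each marker relative to the mean of 10 pan-macrophage genes of the same library (log2 units; 0 is the mean of those genes) in DEN+CCl4 (red, left) and control livers (blue, right), with bars for means. Cd163, Timd4, Clec4f, Marco and Vsig4 do not overlap between groups, and the C1q genes and Cd5l do.

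Other macrophage genes were read in the same fit. Of 25 other genes of resident liver macrophages, 18 were tested, and limma called 0 higher and 0 lower (0 and 2 at an unadjusted p under 0.05, shares that are 2.53% and 5.07% among all tested genes). Their median log2 fold change was -0.07, and that of the 8 tested markers was -0.46, beside -0.27 for all tested genes. After median-ratio scaling these medians were 0.14, -0.23 and -0.10, so that of the other resident genes changed sign. By mean level the leading genes were Nr1h3, the oxysterol receptor LXR-alpha, at 20.5, 23.7 and 4.62 FPKM in DEN+CCl4 liver and 25.3, 18.5 and 22.6 FPKM in controls, and the phospholipid transfer gene Pltp. Fcna, a ficolin of macrophages that starts the lectin pathway, and Hpgd, which inactivates prostaglandins, were looked at after their values were seen. Fcna was at 9.06, 2.31 and 0.65 FPKM in DEN+CCl4 liver and at 21.6, 7.70 and 12.9 FPKM in controls (log2 fold change -1.88, limma adjusted p = 0.180). Hpgd was at 3.90, 1.76 and 1.27 FPKM in DEN+CCl4 liver and at 10.1, 6.33 and 10.1 FPKM in controls (-1.63, limma adjusted p = 0.226). Others went the other way, such as Id1 (log2 fold change 1.30, limma adjusted p = 0.737). Vcam1 was at 0.83, 0.99 and 0.69 FPKM in DEN+CCl4 liver and at 0.63, 0.46 and 0.34 FPKM in controls. Of the 25, 3 lay below and 1 above all controls in every treated liver, against 4.06% and 3.83% of all genes. Of the 18 tested, 7 had a positive log2 fold change, and 12 after median-ratio scaling.

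Of 10 pan-macrophage genes 8 were tested, with 0 called (0 at an unadjusted p under 0.05) and a median log2 fold change of 0.31. Tyrobp and Fcer1g, adaptors of myeloid receptors and the most abundant of the list, had log2 fold changes of 0.58 and 0.56 (limma adjusted p = 0.996 for each). Of 15 genes of recruited and scar-associated macrophages, 6 were tested and 1 was higher, where 0.833% of all tested genes were. All 6 had a positive log2 fold change, with a median of 1.17, but genes near 0 in controls reached the filter only where they were high in DEN+CCl4 liver. Of all 15, tested or not, 8 lay above all controls in every treated liver, against 3.83% of all genes. The gene that rose was Fabp5, a fatty acid binding protein also made by other cells, at 1.77, 12.7 and 7.85 FPKM in DEN+CCl4 liver and 1.06, 0.15 and 0.43 FPKM in controls (log2 fold change 2.21, limma adjusted p = 0.00409). It no longer passed after median-ratio scaling (log2 fold change 2.42, limma adjusted p = 0.431) or without DEN+CCl4 replicate 3 (2.04, limma adjusted p = 0.608). Below the filter, and looked at after their values were seen, the scar-associated genes Gpnmb, of this list, and Trem2, which is among the 25 above, were at 0.52, 0.76 and 0.24 FPKM and at 0.67, 0.72 and 0.23 FPKM in DEN+CCl4 liver. In controls Gpnmb was at 0.05, 0.00 and 0.02 FPKM and Trem2 at 0.25, 0.14 and 0.13 FPKM. Trem2 overlapped between groups, since DEN+CCl4 replicate 3 lay below control replicate 1. The monocyte receptor gene Ccr2, also looked at after its values were seen, was at 0.20, 0.21 and 0.24 FPKM in DEN+CCl4 liver and at 0.06, 0.09 and 0.08 FPKM in controls. The genes of the 15 that were not among the 8 above all controls overlapped between groups, among them Ly6c2, Cx3cr1, Itgam, Chil3, Plac8 and Lpl. Mean FPKM in DEN+CCl4 liver and controls was 0.163 and 0.167 for Ly6c2, and 0.127 and 0.130 for Itgam.

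**Figure D4:**
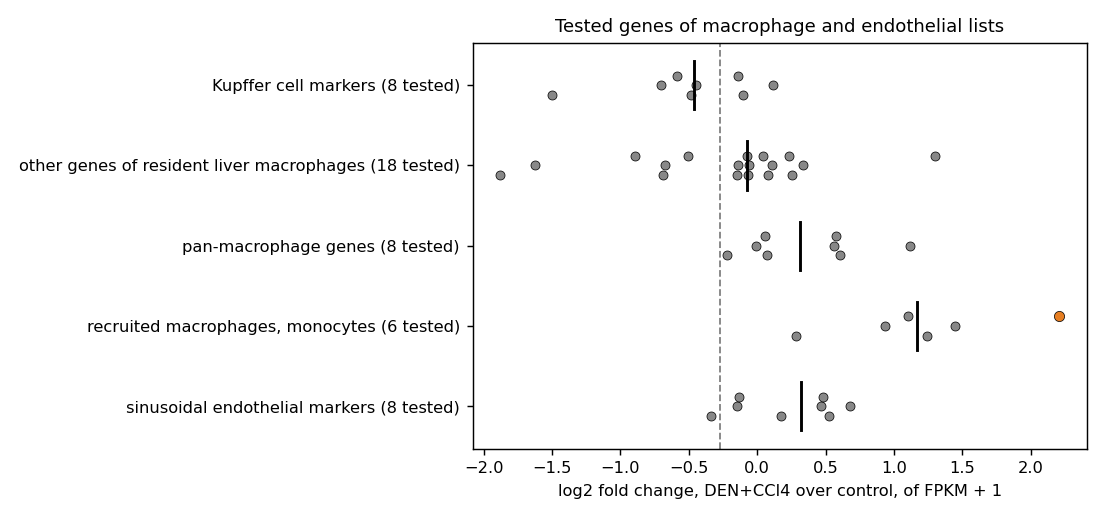
Log2 fold change of FPKM + 1, DEN+CCl4 over control, of each tested gene of 5 lists (points; orange where the limma adjusted p is under 0.05), with the list median (black bar) and the median of all tested genes (dashed line, -0.27). The 8 tested Kupffer cell markers lie at or left of 0.12, and the 6 tested genes of recruited macrophages all lie right of 0, a list in which genes low in controls pass the filter only where treated livers are high.

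Signals and regulators that maintain Kupffer cells were measured too, in whole liver, where the cells their transcripts came from cannot be told apart. The table held 26, of which 17 were tested, and limma called 0 in either direction. At a limma unadjusted p under 0.05, 2 were lower and 0 higher, where 5.07% and 2.53% of all tested genes were. The transcription factor gene Cebpb, of those with the highest mean, was at 27.6, 7.06 and 2.31 FPKM in DEN+CCl4 liver and at 76.4, 25.8 and 17.1 FPKM in controls (log2 fold change -1.87, limma adjusted p = 0.455). DEN+CCl4 replicate 1 was within the controls, and replicates 2 and 3 were below them. Csf1r, the receptor for the survival factor of macrophages, was at 5.80, 5.35 and 2.12 FPKM in DEN+CCl4 liver and at 7.78, 4.41 and 3.50 FPKM in controls, and the PU.1 gene Spi1 at 4.20, 3.56 and 2.19 FPKM in DEN+CCl4 liver and 3.58, 2.53 and 1.87 FPKM in controls. Both were chosen here for their role and overlapped between groups.

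The partners of C1q in the classical pathway, most of them made by hepatocytes, were not called. Of the 14 on the list 11 were tested, with 0 called and 0 at an unadjusted p under 0.05, and their median log2 fold change was -0.57. C3, the component on which the pathways converge, was at 541, 245 and 332 FPKM in DEN+CCl4 liver and at 773, 268 and 413 FPKM in controls, and Calr, calreticulin, at 210.3, 220.5 and 42.3 FPKM in DEN+CCl4 liver and 245, 148 and 218 FPKM in controls.

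Markers of other cells were read beside these results, and their part in them was not tested. The summed FPKM of 11 sinusoidal endothelial genes was 15.0 to 42.5 in DEN+CCl4 liver and 17.8 to 30.1 in controls, with 0 of 8 tested genes called and 0 at an unadjusted p under 0.05 in limma. That of 7 neutrophil genes was 8.69 to 23.8 in DEN+CCl4 liver and 3.13 to 8.31 in controls, and 1 of 3 tested was higher, S100a8 (log2 fold change 1.63, limma adjusted p = 0.0336), which averaged 4.51 ± 3.96 FPKM in DEN+CCl4 liver and 0.507 ± 0.223 FPKM in controls (SD, n = 3 each), so it reached the filter only through the treated livers. It no longer passed after median-ratio scaling (1.90, limma adjusted p = 0.443) or without DEN+CCl4 replicate 3 (1.08, limma adjusted p = 0.586). That of 12 lymphocyte genes was 5.18 to 11.7 in DEN+CCl4 liver and 6.72 to 7.91 in controls, with 0 of 3 tested called and 0 at an unadjusted p under 0.05. Dendritic cell genes summed to 1.21 to 3.90 FPKM in DEN+CCl4 liver and 1.25 to 2.68 FPKM in controls, with 0 of 7 above the filter. Stellate cell and fibroblast genes summed to 18.3 to 38.0 FPKM in DEN+CCl4 liver and 9.29 to 13.6 FPKM in controls, without overlap. Of 7 tested in limma 0 were called and 3 were higher at an unadjusted p under 0.05, where 2.53% of all tested genes were. Of these 3, Col1a1, with a control mean of 0.787 FPKM, reached the filter only through the treated livers. Of all 8 on the list, 4 lay above all controls in every treated liver and 1, Lrat, lay below. Among all genes 3.83% and 4.06% did so. Of 11 hepatocyte genes tested in limma 0 were called and 1 was lower at an unadjusted p under 0.05, where 5.07% of all tested genes were.

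The genes nearest to Clec4f in pattern over the libraries were outside the marker list, as nearly all of the 8528 tested genes are. After median-ratio scaling, likeness was measured as the root mean square difference of log2(value + 1), each gene centred on its own mean over the 6 libraries. The 6 nearest named genes were Ptms, Abcb11, Ptgds, Gjb2, Adhfe1 and Cox6c, at 0.25 to 0.31, where the median of all tested genes was 0.84. Abcb11 is the bile salt export pump of hepatocytes. The nearest markers were Timd4 at 0.46 with 284 tested genes closer, Folr2 at 0.47 with 322 closer and Cd163 at 0.50 with 454 closer. Of these, Timd4 and Cd163 are below the filter, and the added 1 narrows the differences of genes this low. C1qa, Marco and Vsig4, at 0.59, 0.65 and 0.83, were also nearer to Clec4f than the median gene. C1qc, C1qb and Cd5l, at 0.85, 1.02 and 1.14, were farther from it than the median gene. For C1qa the nearest genes were Lrrc25, Siglece, Slc31a1, H2afv, Atp6v0c and Slc15a4, at 0.17 to 0.27, where the median of all tested genes was 0.68. Folr2 followed at 0.28 with 6 genes closer and C1qc at 0.31 with 21 closer, while C1qb was at 0.54. These distances describe 6 libraries and carry no test.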

How the data were processed

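Whole-liver poly(A) RNA of 3 DEN+CCl4 and 3 control mice was deposited by the authors as FPKM in 1 table with a column for each library, as its file headers show. HISAT, StringTie and GRCm38 are named in the submitters' processing notes, with no version, annotation release or strand setting. FPKM depends on the total of a library, so a few abundant transcripts lower all others, and without counts the depth is unknown. The 8528 genes whose mean reached 1 FPKM were fitted on log2(FPKM + 1) with limma 3.58.1 in R 4.3.3 (empirical Bayes with intensity trend, two-sided, Benjamini-Hochberg over all genes tested, threshold 0.05). Python 3.11.15, numpy 2.4.6, pandas 2.3.3 and matplotlib 3.10.9 did the rest. Levels relative to pan-macrophage genes used a pseudocount of 0.1 and exact permutation tests of 3 against 3 libraries. Coordinates are from GENCODE M21 on GRCm38.

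The markers and lists were chosen with earlier results of these data known. All 10 markers are named whatever their values. Of each list up to 4 genes past the threshold are named, or, with under 2 such genes, the 2 of highest mean as well. Other genes were chosen after their values were seen, and 1 gene named by this rule is not reported here. Alternatives were 2 other pseudocounts, no filter and a filter at 5 FPKM, 4 scalings, no trend, array weights, a replicate block, each library left out, and scaling with DEN+CCl4 replicate 3 left out.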

Additional observations from a re-analysis of the deposited data

How the results depend on the processing

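The number of markers called by limma was 0 under every alternative run, and limma adjusted p ran from 0.180 to 1.00 for Clec4f over its alternatives. The direction of Clec4f, Timd4, Vsig4, Marco and Cd163 was negative under every alternative run for them, which for Timd4 and Cd163 did not include quantile normalization or array weights. With array weights Clec4f was -0.13 and Vsig4 -0.015. The sign of the other 5 depended on the setting, all with no call. Cd5l was 0.16 (log2 fold change) with median-ratio scaling, with or without the filter, 0.043 without mitochondrial genes, 0.42 with quantile normalization and 0.35 with array weights. C1qc was 0.16, 0.077, 0.39 and 0.64 under the same 4 settings, 0.16 with scaling and no filter (added after the data were seen), and 0.010 with scaling without DEN+CCl4 replicate 3. C1qa was 0.20 with quantile normalization and 0.71 with array weights, Folr2 0.90 with array weights, and C1qb -0.041 rescaled to TPM. With each library left out in turn, log2 fold changes spanned -0.46 to 0.35 for Cd5l, -1.01 to 0.075 for Folr2, -0.96 to 0.17 for C1qa, -0.11 to 0.55 for C1qb and -0.45 to 0.41 for C1qc. The cause was not tested. All 90 relative levels kept their sign, though their size moved with the pseudocount. With a library left out, the number of markers below all controls on that scale spanned 5 to 7, beside 6.76% to 54.7% of all genes. By construction it cannot fall below the 5 of all libraries.

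The count of all genes called, 126, was 9 and 4 at pseudocounts of 0.1 and 0.01, 67 with a filter at 5 FPKM, 58 rescaled to TPM, 9 without mitochondrial genes and 421 with array weights. It was 0 with no filter, with median-ratio scaling (also with no filter or without DEN+CCl4 replicate 3), with quantile normalization and without the trend, and 0 to 379 with each library left out. With the replicate number as a block it was 94, with 0 markers called. Correlations of deviations between same-numbered libraries were 0.07, 0.42 and -0.15, and 1 of 3 DEN+CCl4 libraries matched best the control of its own number. The labels state no pairing, and so few values cannot show that there is none. Markers under 1 FPKM rest on 2 decimals at an unknown depth.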
